A study of Homo sapiens with 6 samples.

Results

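Heat shock genes encode the molecular chaperones that keep proteins folded in the cytosol and in the mitochondria, together with the partners that steer them. The 10 genes described here were chosen by name, and each is present once in the deposited table of 58735 genes: HSPA1A, HSPA1B, HSPA8, HSPH1 and DNAJB1 of the HSP70 machine, BAG3, HSP90AA1, HSPB1, the mitochondrial chaperonin gene HSPD1, and CLU, the gene of the secreted chaperone clusterin. All 10 passed the filter on low counts, as did 14736 genes in all. The study asked how SCH, the herb Salvia chinensis Benth, acts against TNBC cells, and RNA sequencing was among its methods. SCH was given as an aqueous extract, with doses stated as the equivalent weight of raw herb. MDA-MB-231 cells, an established human TNBC line labelled wild type, were kept for 24 h in medium with SCH at 100 mg/l (3 samples) or with vehicle (3 samples). No other treatment or alteration is named for either group, and what the vehicle was is not given in the sources used here. The labels name RPMI-1640 as the medium of these cells and the methods name DMEM, and both groups come from the same line. The series describes the samples of a group as biological repeats, so the p-values below measure the spread between repeats of 1 cell line. Libraries were prepared from poly-T purified mRNA and sequenced on an Illumina HiSeq instrument by Novogene. Total counts were 20291379, 18714240 and 18334857 in vehicle samples 1 to 3, and 16836369, 17979434 and 18414924 in SCH samples 1 to 3.

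Cells hold heat shock genes of different kinds. Some, such as HSPA8, are transcribed at a high level at all times and serve the folding of newly made proteins, while others, such as HSPA1A and HSPA1B, are kept low and are switched on by heat, heavy metals, oxidants or proteasome inhibition. The switch is the transcription factor HSF1, which binds arrays of alternating GAA and TTC units in promoters, and cancer cells often run with a raised demand for chaperones.

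The promoter sequences of RefSeq on GRCh38.p14, 250 bases before to 50 bases after each gene start, held entries for 9 of the 10 genes, all but CLU. They were searched for adjacent units in either order, GAANNTTC or TTCNNGAA, where N is any base. Each pattern reads the same on both strands, and the 2 patterns can overlap. Of 35116 promoters of this length in RefSeq, 13.5% held at least 1 such pair and 0.49% held a run of 3 alternating units. Among the 9 genes, 7 held a pair and 3 (HSPA8, HSP90AA1 and HSPD1) held a run of 3 units. Some genes have several entries, and counted by entry, as the share over RefSeq is, 8 of 13 held a pair. No pair was found in the windows of HSPH1 and BAG3. For each of the 7 genes, 1 stretch with pairs is shown because the capital letters, which mark the matched units, let the arrangement be compared between genes that moved in different directions after SCH. The stretches are written 5′ to 3′ on the strand of the gene, and 1 further pair, in the first entry of DNAJB1 at its gene start, is not shown.
HSPA1A, chr6:31815425-31815456, plus strand: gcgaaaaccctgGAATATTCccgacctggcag
HSPA1B, chr6:31827621-31827652, plus strand: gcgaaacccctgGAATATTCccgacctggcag
HSPA8, chr11:123062167-123062378, minus strand: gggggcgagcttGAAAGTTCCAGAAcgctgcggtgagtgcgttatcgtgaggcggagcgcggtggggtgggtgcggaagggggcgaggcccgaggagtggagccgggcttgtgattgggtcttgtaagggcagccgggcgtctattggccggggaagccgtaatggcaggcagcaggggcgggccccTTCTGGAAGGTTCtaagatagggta
HSP90AA1 (first of 2 entries), chr14:102087093-102087144, minus strand: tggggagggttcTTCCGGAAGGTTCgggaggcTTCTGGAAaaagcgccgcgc
DNAJB1 (second of 3 entries), chr19:14518425-14518486, minus strand: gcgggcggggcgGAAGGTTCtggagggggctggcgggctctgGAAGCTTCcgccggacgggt
HSPB1, chr7:76302479-76302510, plus strand: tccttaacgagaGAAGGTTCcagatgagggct
HSPD1 (first of 2 entries), chr2:197500056-197500090, minus strand: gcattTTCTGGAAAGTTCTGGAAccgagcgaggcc
Starts here are those of the RefSeq entries, which can differ from the gene bounds in the deposited table. For HSPA8 the RefSeq start is 123062136 and the deposited bound 123063230, and for the first entry of HSPD1 they are 197499840 and 197516737. The pair of HSPA1A began 106 bases before its start and that of HSPA1B 105 bases before its own, with the same letters. HSPA8 held 4 pairs in 2 runs, which began 230 and 55 bases before the start. HSP90AA1 held 3 pairs and HSPD1 3 pairs. A match describes the letters of the window and is not a measurement of binding. Genes that rose and genes that fell both held pairs, and the 3 genes with runs of 3 units comprised 2 that fell (HSPA8 and HSPD1) and 1 that rose (HSP90AA1).

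After 24 h of SCH, the stress-inducible HSP70 genes HSPA1A and HSPA1B rose by 51.8% and 43.3%, DNAJB1 by 28.1% and BAG3 by 19.5%, and CLU rose 5.35-fold, while the constitutive HSP70 gene HSPA8 fell by 40.1%, the mitochondrial HSPD1 by 33.5% and HSPB1 by 19.3%. HSP90AA1 rose slightly and HSPH1 did not pass the test. In all, 9 of the 10 genes were called by edgeR's quasi-likelihood test with Benjamini-Hochberg adjustment at a threshold of 0.05, in a background where 58.7% of all tested genes were called. Of these, 6 were raised (background 29.3%) and 3 were lowered (background 29.4%). The background was not matched for level, and most of the 10 are abundant genes. Among tested genes HSP90AA1 was at percentile 99.9 of level, HSPA8 at 99.8 and BAG3 at 89.6, while CLU was at 73.5 and HSPA1A at 32.9. In 5 genes every SCH sample lay above every vehicle sample in normalized counts (CPM, each count divided by the scaled depth of its sample), a pattern that 31.1% of all tested genes had, and in 3 genes every SCH sample lay below, as in 31.3% of all tested genes. On this scale the groups overlapped in HSP90AA1 and HSPH1, while those of HSP90AA1 lay apart as a share of all counts. The median log2 fold change of the 10 genes was 0.20, against -0.0034 over all tested genes, and their median absolute log2 fold change was 0.44 against 0.31. With 3 samples against 3, an exact permutation test of 1 gene cannot give a p below 0.1, so the tests of single genes rest on the spread that edgeR shares across genes (common biological coefficient of variation 5.17%). These are bulk samples, in which fewer cells of a kind and less RNA per cell cannot be told apart.

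**Figure D1:**
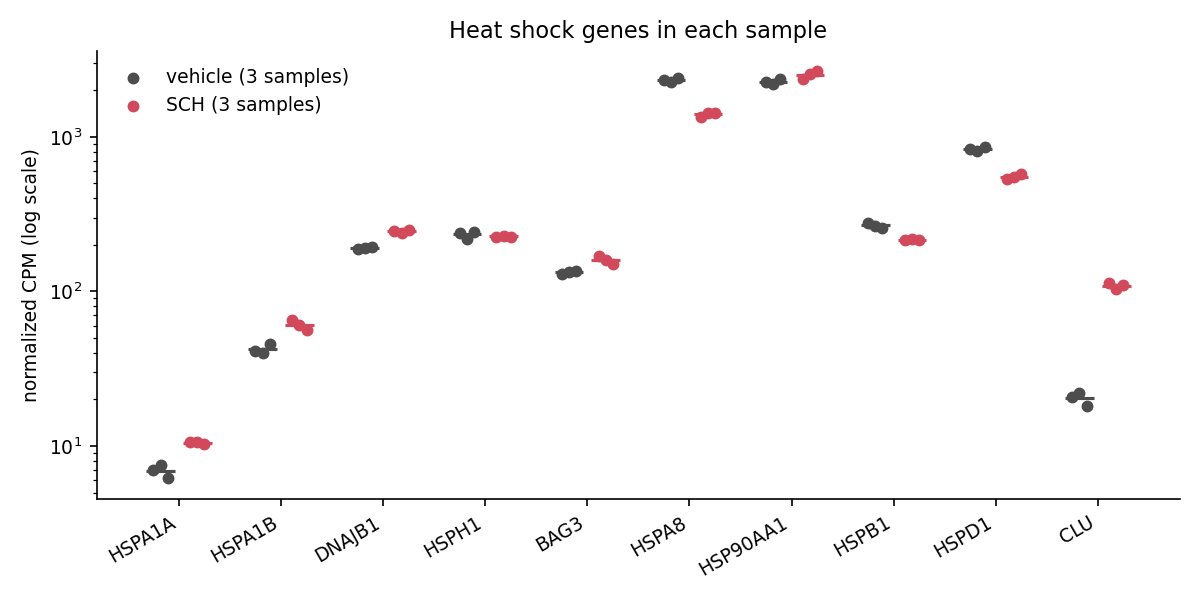
Normalized CPM (log axis) of the 10 heat shock genes in the 3 vehicle samples (grey) and the 3 SCH samples (red); each point is a sample and each line the group mean. The groups lie apart for every gene except HSP90AA1 and HSPH1, and CLU goes from 20.4 to 109 CPM.

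HSPA1A and HSPA1B are neighbouring genes on chromosome 6 (31815464 to 31817946 and 31827735 to 31830255 in the deposited table, GRCh38, plus strand) that encode the same inducible HSP70 protein. HSPA1A (ENSG00000204389) was at 7.02, 7.52 and 6.19 CPM in vehicle samples 1 to 3 and at 10.6, 10.6 and 10.3 CPM in the SCH samples. All 3 SCH samples were higher, and they lay within a narrower range than the vehicle samples. The counts behind these values were low, 110 to 137 per vehicle sample and 185 to 197 per SCH sample. Its log2 fold change was 0.60 (SE 0.12, adjusted p = 1.29e-04 from edgeR). HSPA1B (ENSG00000204388) was at 41.4, 39.7 and 45.6 CPM after vehicle and at 65.4, 60.3 and 56.0 CPM after SCH. Again the groups did not overlap, and SCH sample 1 was the highest. The log2 fold change was 0.52 (SE 0.070, adjusted p = 9.33e-07 from edgeR), a rise of 43.3%.

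The split of reads between these copies is uncertain. Of the 2384 windows of 100 bases in the longest HSPA1A transcript, 1666 (69.9%) also occur in HSPA1B. In alignment the transcripts were 88.0% identical and the promoter windows 92.0% identical. How reads that match both genes were counted is not given in the sources used here. With the counts of both genes summed to 1 row, the log2 fold change was 0.53 (adjusted p = 1.83e-07 from edgeR), close to that of HSPA1B, which carried most of the counts. In addition, 36.5% of the exonic bases of HSPA1B lie in exons of AL671762.1, which was listed at 0 in all 6 samples. No window of 100 bases was shared between either copy and HSPA8.

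HSPA8 (ENSG00000109971, chromosome 11 from 123057489 to 123063230, minus strand) encodes the constitutive cytosolic HSP70, HSC70. It was at 2314, 2274 and 2414 CPM in vehicle samples 1 to 3 and at 1336, 1428 and 1430.2 CPM in SCH samples 1 to 3. The lowest vehicle sample was far above the highest SCH sample. HSPA8 fell by 40.1%, with a log2 fold change of -0.74 (SE 0.046, adjusted p = 3.55e-12 from edgeR), the largest fall of the 10 genes, and 8.90% of all tested genes had a log2 fold change at or below it. Its 17 named pseudogenes together held counts equal to 0.029% of those of HSPA8 after vehicle and 0.042% after SCH, and adding them left the log2 fold change at -0.74.

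HSPH1 (ENSG00000120694, chromosome 13 from 31134974 to 31162388, minus strand) encodes HSP110, which exchanges nucleotide on HSP70 and slows aggregation. It was at 238, 219 and 244 CPM after vehicle and at 226, 229 and 226 CPM after SCH. The SCH samples lay inside the range of the vehicle samples. The log2 fold change was -0.04 with a 95% interval from -0.14 to 0.06 (adjusted p = 0.50 from edgeR), and 0.06 with library size alone in place of TMM factors, a setting that moves the median of all tested genes to 0.099. Relative to that median HSPH1 was at -0.04 in both fits. A change of HSPH1 as large as those of HSPA1A, HSPA1B or DNAJB1 lies outside this interval.

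DNAJB1 (ENSG00000132002, chromosome 19 from 14514770 to 14529770, minus strand) encodes HSP40, the J-domain protein that hands substrates to HSP70 and stimulates its ATPase. It was at 189, 191 and 193 CPM after vehicle and at 247, 238 and 250.3 CPM after SCH. The groups lay apart by more than the spread within either. DNAJB1 rose by 28.1%, with a log2 fold change of 0.36 (SE 0.047, adjusted p = 7.05e-07 from edgeR). BAG3 (ENSG00000151929, chromosome 10 from 119651370 to 119677819, plus strand) encodes the exchange factor that links HSP70 and small heat shock proteins to selective autophagy. It was at 129.9, 134 and 135 CPM after vehicle and at 168, 159 and 149.8 CPM after SCH. The 3 SCH samples were more spread than the vehicle samples and all lay above them. Its log2 fold change was 0.26 (SE 0.053, adjusted p = 2.03e-04 from edgeR), and it went from 0.22 without SCH sample 1 to 0.31 as single samples were left out.

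HSP90AA1 (ENSG00000080824, chromosome 14 from 102080738 to 102139699, minus strand) encodes the inducible form of cytosolic HSP90, which holds kinases and steroid receptors in an active shape. It was at 2257, 2181 and 2382 CPM after vehicle and at 2367, 2541 and 2661 CPM after SCH. Vehicle sample 3 was above SCH sample 1, so the groups overlapped in CPM. As a share of all counts they lay apart, at 0.209% to 0.231% after vehicle and 0.245% to 0.275% after SCH. In the deposited FPKM they lay apart narrowly, with a vehicle maximum of 438.3 and an SCH minimum of 439.6. The log2 fold change was 0.15 with a 95% interval from 0.05 to 0.25 (adjusted p = 0.0125 from edgeR). This call was lost without vehicle sample 2 (0.12, adjusted p = 0.0683) and without SCH sample 3 (0.12, adjusted p = 0.0557), both from edgeR. The adjusted p was 0.0502 with upper quartile normalization in edgeR and 0.0501 with limma on log2(FPKM + 1), while library size alone gave a log2 fold change of 0.25. The other cytosolic HSP90 gene, HSP90AB1, which is the constitutive form and is named here after its values were seen, was at 3071 ± 79.3 CPM (SD, n = 3) after vehicle and 2339 ± 45.4 CPM (SD, n = 3) after SCH. Its log2 fold change was -0.39 (SE 0.044, adjusted p = 6.58e-08 from edgeR). No window of 100 bases was shared between the longest transcripts of the pair, and the difference between their changes was not tested.

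HSPB1 (ENSG00000106211, chromosome 7 from 76302544 to 76304295, plus strand) encodes HSP27, a small heat shock protein that holds unfolded clients without using ATP. It was at 279, 267 and 257 CPM after vehicle and at 214, 218 and 215 CPM after SCH. Each SCH sample was below each vehicle sample. HSPB1 fell by 19.3%, with a log2 fold change of -0.31 (SE 0.048, adjusted p = 6.60e-06 from edgeR).

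HSPD1 (ENSG00000144381, chromosome 2 from 197486581 to 197516737, minus strand) encodes HSP60, the chaperonin that folds proteins imported into the mitochondrial matrix. It was at 831, 808 and 860.1 CPM after vehicle and at 536, 553 and 571 CPM after SCH. The groups were far apart. HSPD1 fell by 33.5%, with a log2 fold change of -0.59 (SE 0.046, adjusted p = 1.72e-10 from edgeR). Its neighbour HSPE1, which encodes the HSP10 lid of the same chaperonin, was at 73.3, 81.4 and 64.0 CPM after vehicle and at 40.1, 41.1 and 41.3 CPM after SCH. HSPE1 also fell, with a log2 fold change of -0.84 (SE 0.073, adjusted p = 1.01e-09 from edgeR). Of the exonic bases of HSPD1, 6.62% lie in exons of HSPE1, and the library kit named in the methods does not mark strand, so reads from this stretch cannot be assigned to one gene. The named pseudogenes of HSPD1 held counts equal to 1.30% (vehicle) and 1.45% (SCH) of those of HSPD1, and with them added its log2 fold change stayed at -0.59. Per length, HSPE1 was at 18.9% ± 2.84 of HSPD1 after vehicle and at 15.9% ± 0.280 after SCH (SD, n = 3), with overlapping groups (two-sided exact permutation p = 0.2). These percentages depend on the length used for HSPD1, 4245 exonic bases against 2455 in its longest transcript.

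CLU (ENSG00000120885, chromosome 8 from 27596917 to 27615031, minus strand) encodes clusterin, a chaperone that is mostly secreted and acts on misfolded proteins outside the cell. It was at 20.9, 22.1 and 18.2 CPM in vehicle samples 1 to 3 and at 114, 104 and 109.6 CPM in SCH samples 1 to 3. The raw counts were 407, 396 and 324 after vehicle and 1984, 1940 and 2084 after SCH. The lowest SCH sample, at 104 CPM, was far above the highest vehicle sample, at 22.1 CPM. The log2 fold change was 2.42 (SE 0.070, adjusted p = 6.60e-18 from edgeR), or 5.35-fold, which ranked 22 from the top among the 14736 tested genes. CLU was the only 1 of the 10 genes that was called with a log2 fold change of 1 or more, as were 3.89% of all tested genes. The next largest change of the 10 in either direction was that of HSPA8.

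**Figure D2:**
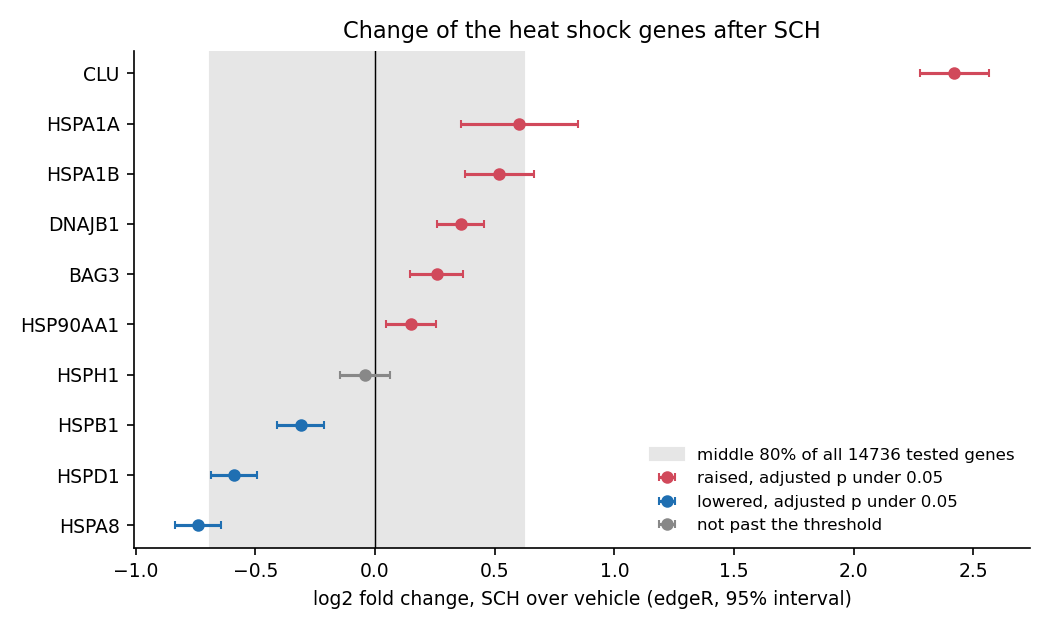
Log2 fold change of each of the 10 genes, SCH over vehicle, with the 95% interval from edgeR; red points were raised, blue lowered, the grey point did not pass the threshold, and the grey band holds the middle 80% of all 14736 tested genes (-0.69 to 0.62). CLU at 2.42 and HSPA8 at -0.74 lie outside the band and the other 8 inside it.

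Levels of different genes were compared per length, as the deposited FPKM (fragments per kilobase of gene, with a scale factor for each sample). Total counts alone did not set this factor. Relative to scaling by total counts it was 1.006, 1.008 and 0.9955 in the vehicle samples and 0.9408, 0.937 and 0.9369 in the SCH samples. The length is that of all exonic bases of a gene, 4849 for HSPA8 and 2483 for HSPA1A. Their longest transcripts have 2463 and 2483 bases, so levels and ranks between genes depend on this choice of length. In vehicle-treated cells HSPA8 was the most abundant of the 10 genes at 465 ± 14.1 FPKM, before HSP90AA1 at 419 ± 18.4, HSPD1 at 189.6 ± 5.86 and HSPB1 at 158 ± 6.57 FPKM (SD, n = 3 for each). The inducible HSP70 copies were far lower, HSPA1B at 16.2 ± 1.15 FPKM and HSPA1A at 2.69 ± 0.265 FPKM (SD, n = 3). In between lay DNAJB1 at 50.3, BAG3 at 46.8 and HSPH1 at 26.9 FPKM, and CLU at 2.98 FPKM overlapped HSPA1A. After SCH the order at the top had changed, with HSP90AA1 at 467 ± 25.7 FPKM above HSPA8 at 279.9 ± 9.90 FPKM (SD, n = 3). HSPB1 and HSPD1, at 128 and 127 FPKM, overlapped. CLU, at 16.0 ± 0.737 FPKM (SD, n = 3), lay above HSPA1A at 4.11 FPKM and below HSPA1B at 23.3 FPKM, without overlap. The lengths used were 6616 bases for CLU and 2521 for HSPA1B. In CPM, which is not divided by length, CLU was above HSPA1B after SCH (109 against 60.6). All other neighbours in either order of FPKM lay apart. The 10 genes together held 0.606%, 0.589% and 0.636% of all counts in the vehicle samples and 0.547%, 0.574% and 0.587% in the SCH samples, so each SCH sample was below each vehicle sample, by little.

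The balance between the HSP70 genes and their partners was taken as ratios of FPKM within a sample, which do not depend on the scaling of the sample. HSPA1A and HSPA1B together amounted to 4.04%, 4.01% and 4.13% of HSPA8 in the vehicle samples and to 10.96%, 9.58% and 8.95% in the SCH samples. By these lengths the inducible copies stayed low relative to HSPA8, at a ratio 2.42 times that of vehicle. The percentages depend on the lengths used, 4849 exonic bases for HSPA8 against 2463 in its longest transcript. DNAJB1 went from 10.8% ± 0.280 to 23.2% ± 1.23 of HSPA8 (SD, n = 3), and BAG3 from 10.1% ± 0.309 to 20.1% ± 1.91 (SD, n = 3). HSPH1, whose own level did not pass the test, went from 5.78% ± 0.201 to 9.40% ± 0.330 of HSPA8 (SD, n = 3). HSPA8 itself was at 1.11 ± 0.0159 times the level of HSP90AA1 after vehicle and at 0.600 ± 0.0160 times after SCH (SD, n = 3). In each of these 5 ratios the groups did not overlap, and the exact two-sided permutation p was 0.1, the smallest that 3 samples against 3 allow. All 5 share HSPA8, so they are not independent. HSPA8 itself fell by 40.1%, so a gene that keeps its level also rises relative to it, as HSPH1 did. The ratios therefore add no support beyond the changes of the single genes. How many of all tested genes lie apart in their ratio to HSPA8 was not tested.

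**Figure D3:**
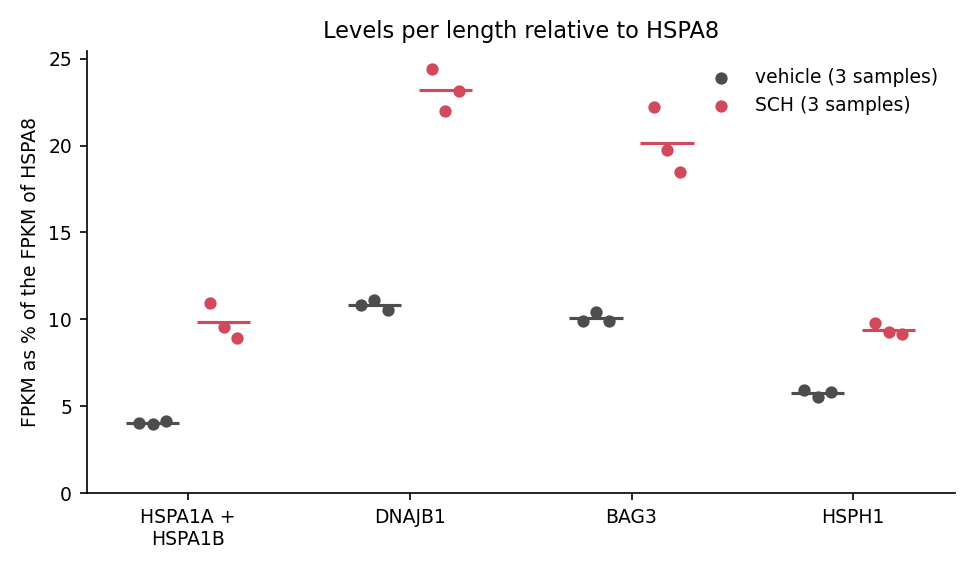
FPKM of HSPA1A plus HSPA1B, DNAJB1, BAG3 and HSPH1 as a percentage of the FPKM of HSPA8 in each sample (points; lines are group means; grey vehicle, red SCH, 3 samples each). The SCH samples lie above the vehicle samples in each ratio, for example 8.95% to 10.96% against 4.01% to 4.13% for the inducible HSP70 copies. HSPA8, to which each ratio refers, itself fell by 40.1%.

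The other genes of the chaperone network were read from 9 lists by role. Of 81 entries, 73 were tested and 71.2% of those were called (17 raised, 35 lowered, 21 not past the threshold), against 58.7% of all tested genes. The raised genes were thus 23.3% of those tested and the lowered genes 47.95%, against 29.3% and 29.4% of all tested genes. With library size alone, 26 were raised and 26 lowered (35.6% each), against 37.5% and 22.4% of all tested genes at that scaling. Their median log2 fold change was -0.12, and its difference from the median of all tested genes was -0.12 in both fits. Of 5 heat shock factors and their regulators, 1 rose (background 29.3%), 1 fell (background 29.4%) and 3 did not pass. Library size alone gave 3 raised and 1 lowered (background 37.5% and 22.4%). Without SCH sample 1, 3 rose and 1 fell, in a fit that called 4131 genes raised and 4034 lowered of 15097 tested. HSF1 was at 202, 205 and 189 CPM after vehicle and at 206, 192 and 191 CPM after SCH, with overlapping groups and a log2 fold change of -0.02 (SE 0.051, adjusted p = 0.80 from edgeR). HSF2 had a log2 fold change of 0.18 (SE 0.081, adjusted p = 0.064 from edgeR) and passed the threshold in 4 alternatives, without vehicle sample 3 or without SCH sample 1 (0.24 in each), with library size alone (0.28, adjusted p = 0.0050) and with the replicate block (0.17, adjusted p = 0.046). HSF4, a factor best known from the lens, rose from 8.34 ± 1.198 to 16.0 ± 2.33 CPM (SD, n = 3), while HSF2BP, a partner of HSF2 known from meiosis, fell by 0.90 on the log2 scale, a call lost without vehicle sample 2 (-0.58), and its change was -0.42 on the log2(FPKM + 1) scale. These tests concern transcripts, and HSF1 is regulated mainly at the protein.

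Among the remaining HSP70 and HSP110 genes, 9 entries in all, 1 rose, 3 fell and 5 did not pass (background 29.3% raised and 29.4% lowered), and with library size alone 3 rose and 2 fell (background 37.5% and 22.4%). HSPA4L, a testis-rich HSP110 relative, rose from 87.4 ± 6.74 to 140.0 ± 6.58 CPM (SD, n = 3), a log2 fold change of 0.68 (SE 0.059, adjusted p = 8.62e-10 from edgeR). HSPA4, HSPA12B and 1 of the 2 entries named HSPA14 fell by 0.18, 0.99 and 0.35 on the log2 scale, and HSPA4 did not pass with library size alone (-0.07). The other HSPA14 entry, given here after its values were seen, did not pass (log2 fold change 0.08, adjusted p = 0.36 from edgeR). It held more counts, 3113 against 2068 over the vehicle samples. HSPA12B rests on 168 counts over the vehicle samples and 84 over the SCH samples, and on the log2(FPKM + 1) scale its change was -0.39. HSPA6, a strictly stress-inducible HSP70 named here after its values were seen, was at 1.18 ± 0.262 CPM after vehicle and 1.81 ± 0.275 CPM after SCH (SD, n = 3). Its groups did not overlap, but it rests on 65 counts against 100 and did not pass the test (log2 fold change 0.62, SE 0.28, adjusted p = 0.057 from edgeR).

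Of 10 tested J-domain genes other than DNAJB1, which feed clients to HSP70, 4 rose (background 29.3%) and 2 fell (background 29.4%), and with library size alone 6 rose and 1 fell (background 37.5% and 22.4%). The largest rises were those of DNAJB2 with a log2 fold change of 0.88 (SE 0.078, adjusted p = 1.28e-09), DNAJB5 with 0.68 (SE 0.11, adjusted p = 7.99e-06, and 0.44 on the log2(FPKM + 1) scale) and DNAJB4 with 0.64 (SE 0.073, adjusted p = 7.65e-08, all from edgeR). DNAJC7, a J-domain protein that also binds HSP90, fell by 0.25, and DNAJB6, named here after its values were seen, by 0.17. With library size alone DNAJC7 kept its call at a smaller change (-0.14, adjusted p = 0.029 from edgeR), and DNAJB6 lost its call. Of 6 nucleotide exchange factors, which reset HSP70, 2 rose and 3 fell (background 29.3% and 29.4%), and with library size alone 3 rose and 1 fell (background 37.5% and 22.4%). BAG1 fell from 88.5 ± 3.81 to 61.8 ± 3.39 CPM (SD, n = 3), in the opposite direction to BAG3, and HSPBP1 fell by 0.25 with overlapping groups, a call lost with library size alone (-0.15, adjusted p = 0.067 from edgeR). BAG6, which triages faulty membrane proteins, rose by 0.39 and BAG4 by 0.22, and BAG4 lost its call in 7 of 15 alternatives. These were DESeq2 (0.23, adjusted p = 0.074), upper quartile normalization (0.18), both limma fits (0.19 and 0.23) and the fits without vehicle sample 2 (0.13), SCH sample 1 (0.21) or SCH sample 3 (0.23).

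Of 17 genes of the HSP90 list, 9 fell and 4 rose (background 29.4% and 29.3%), and with library size alone 6 fell and 5 rose (background 22.4% and 37.5%). FKBP4 and FKBP5 encode immunophilins that compete for HSP90 in steroid receptor complexes, and they moved apart. FKBP4 went from 202, 203.5 and 191 CPM after vehicle to 139, 123.5 and 128 CPM after SCH, a log2 fold change of -0.61 (SE 0.053, adjusted p = 9.90e-10 from edgeR). FKBP5 went from 67.3, 66.8 and 64.7 CPM to 92.9, 92.9 and 91.7 CPM, a log2 fold change of 0.48 (SE 0.054, adjusted p = 6.24e-08 from edgeR). UNC45A, a myosin chaperone, rose by 0.45. CDC37L1, a relative of the kinase co-chaperone CDC37, rose by 0.43 and lost its call without vehicle sample 2 (0.27) or SCH sample 1 (0.35) and with DESeq2 (0.45, adjusted p = 0.051).

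Of the 12 other genes of the mitochondrial list, 8 fell (background 29.4%), none rose (background 29.3%) and 4 did not pass the edgeR test, and with library size alone 7 fell and 1 rose (background 22.4% and 37.5%). HSPA9, the mitochondrial HSP70 that pulls proteins through the import pore, was at 742, 719 and 735 CPM after vehicle and at 491, 499.5 and 515 CPM after SCH. The log2 fold change of HSPA9 was -0.54 (SE 0.045, adjusted p = 3.84e-10 from edgeR). TRAP1, the mitochondrial HSP90, fell by 0.72 and LONP1, a matrix protease, by 0.58. All 8 subunits of TRiC, the cytosolic chaperonin that folds actin and tubulin, fell (background 29.4%), between 0.20 and 0.45 on the log2 scale, with 7 of the 8 lowered under library size alone (background 22.4%). The largest of these falls was in CCT5, from 662 ± 9.26 to 485 ± 13.6 CPM (SD, n = 3), and CCT4, CCT3 and CCT7 fell by 0.32, 0.30 and 0.28. The TRiC genes are abundant, from percentile 95.8 (CCT4) to 98.9 (CCT3) of level among tested genes. The background was not matched for level.

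Of the 8 small heat shock genes other than HSPB1, HSPB8 alone was tested. It went from 45.7, 44.5 and 48.6 CPM after vehicle to 74.1, 77.0 and 79.5 CPM after SCH. HSPB8, the partner of BAG3 in selective autophagy, rose with a log2 fold change of 0.73 (SE 0.060, adjusted p = 3.53e-10 from edgeR), in the direction of BAG3 and against HSPB1. Of 5 further genes known as HSF1 targets, 4 rose and 1 fell (background 29.3% and 29.4%). HMOX1, a heme-degrading enzyme also driven by oxidants, rose by 0.61 and IER5 by 0.19. SERPINH1, the collagen chaperone, fell by 0.49.

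The chaperones of the endoplasmic reticulum (ER), which answer to other factors than HSF1, were read for comparison. Of 12 genes, 2 rose (16.7%, background 29.3%), 5 fell (41.7%, background 29.4%) and 5 did not pass. In all 58.3% were called, close to the 58.7% of all tested genes. Library size alone gave 3 raised and 4 lowered (background 37.5% and 22.4%). HSPA5, the ER form of HSP70, fell from 972 ± 12.8 to 756.5 ± 33.3 CPM (SD, n = 3), in the direction of HSPA8, and PDIA6 fell by 0.37. DNAJB9 rose by 0.78 and DNAJC3 by 0.27, in the direction of DNAJB1. Whether the ER genes and the 10 genes differ in response was not tested.

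**Figure D4:**
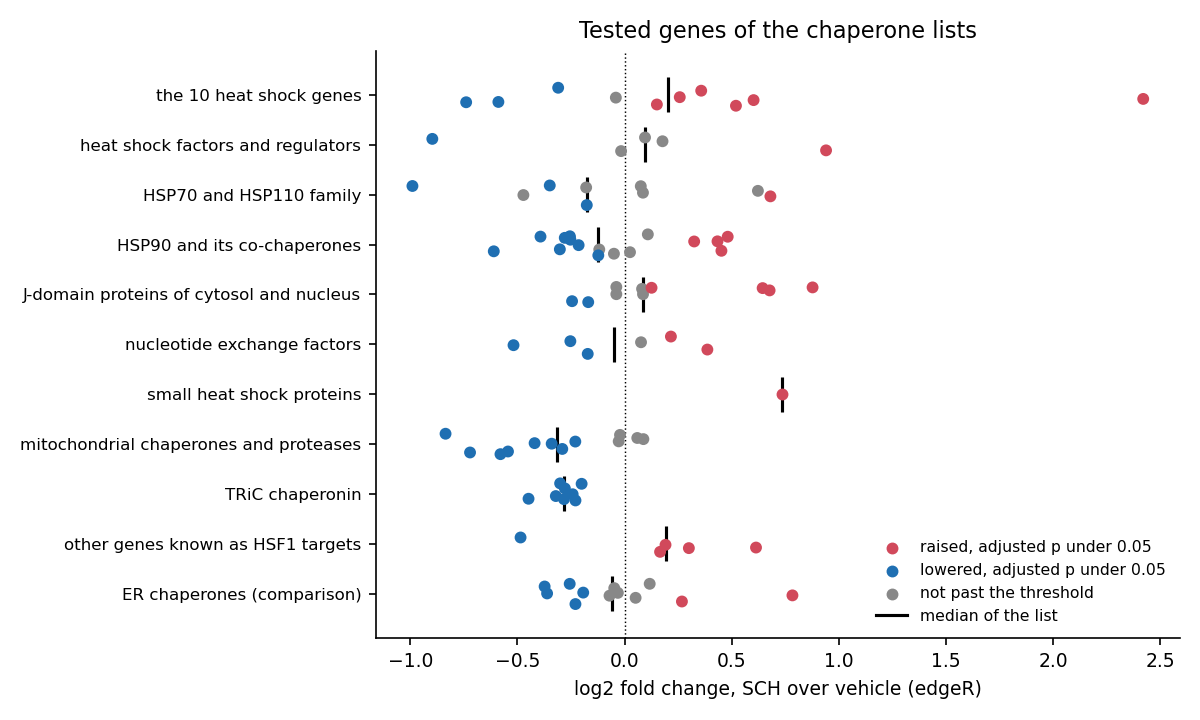
Log2 fold changes, SCH over vehicle, of the tested genes of each chaperone list (points, red raised, blue lowered, grey not past the threshold; vertical position within a list has no meaning) with the list's median as a black line. All 8 TRiC genes and 8 of 12 mitochondrial genes were lowered (background 29.4%, and 7 of each with a background of 22.4% under library size alone), while the 10 heat shock genes spread from -0.74 to 2.42.

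The identity of the cells was read from marker genes. VIM, CD44, EGFR, KRT7 and KRT18, which this mesenchymal line expresses, were all found, from 43.2 FPKM (EGFR) to 263 FPKM (VIM) after vehicle. After SCH they were at 180.1 (VIM), 99.3 (CD44), 35.8 (EGFR), 46.5 (KRT7) and 74.5 FPKM (KRT18), and KRT7, with a log2 fold change of -1.87, fell by more than any of the 10 heat shock genes. ESR1, PGR, CDH1 and ERBB2 were listed as genes at or near 0 in this line. ESR1, PGR and CDH1 had 12, 0 and 14 counts over the 3 vehicle samples and 7, 1 and 7 over the SCH samples, while ERBB2 was not near 0, at 6.67 FPKM after vehicle and 8.22 FPKM after SCH. The 8 markers of other cell types summed to 0.898, 0.944 and 0.914 FPKM in the vehicle samples and to 0.976, 1.14 and 1.06 FPKM in the SCH samples. The most abundant of these was COL1A1 (0.481 FPKM after vehicle, 0.819 after SCH). PTPRC had 110 counts over the vehicle samples and 16 over the SCH samples. CD3E, CD68 and ALB had at most 6 counts in either group, PECAM1 had 60 and 67 and VWF 17 and 3. The part of any of these markers in the results was not tested.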

How the data were processed

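The authors deposited raw counts per gene, with no normalization, for 3 vehicle and 3 SCH samples of MDA-MB-231 cells. The deposited FPKM values of the authors were, within a sample, proportional to count over gene length. The submitters' processing notes list CASAVA 1.8, HISAT2 2.0.5, featureCounts 1.5.0-p3 and DESeq2 1.20.0 with GRCh38 (hg38), without roles or order. The handling of reads that match several genes is not given in the sources used here. All sample columns were used.

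The test was run on these counts in edgeR 4.0.16 under R 4.3.3: TMM factors, filterByExpr (14736 of 58735 genes kept), quasi-likelihood fit and test without covariates, Benjamini-Hochberg adjustment over all tested genes, threshold 0.05. CPM values use the TMM-scaled library sizes. The common biological coefficient of variation was 5.17%. Single ratios were compared by exact two-sided permutation tests. Sequences came from RefSeq tables on GRCh38.p14 and GENCODE transcripts. Figures used Python 3.11.15.

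The 10 genes, the lists and the tests were chosen with earlier results of these data known. Named genes were the 10, HSF1 and HSF2, the 4 called genes of each other list with the largest absolute change (all, where a list had 4 or fewer), named pseudogenes, and for the largest rise and fall the 3 genes nearest in profile. Alternatives were other normalizations, filters, DESeq2 1.42.0, limma 3.58.1 with trend on log2(FPKM + 1) and log2(FPKM + 0.1), a replicate block, each replicate left out, and summed copies. The edgeR script was tested on simulated data with known changes. Values of 2 listed genes are not reported here.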

Additional observations from a re-analysis of the deposited data

How the results depend on the processing

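Of the 10 genes, 8 kept direction and side of the threshold under every alternative tried. HSP90AA1 (0.15 on the log2 scale) missed the threshold with upper quartile normalization (0.12, adjusted p = 0.0502 from edgeR), with limma on log2(FPKM + 1) (0.16, adjusted p = 0.0501) and in 2 of the runs that left out 1 replicate, which gave 0.12 to 0.20; the cause was not tested. HSPH1 was called under no alternative, and its log2 value ran from -0.08 to 0.06, above 0 with library size alone, which moves all genes up. The count of changed genes among the 10 was 8 or 9, with 3 lowered throughout, and among the listed chaperone genes it was 48 to 54 (52 as reported, 17 raised and 35 lowered, and 26 and 26 with library size alone). Across all genes the count ran from 7532 (DESeq2) to 8814 (library size alone), against 8650. Library size alone moved the median change over all genes to 0.10 on the log2 scale and the raised share of the calls from 49.9% to 62.6%. Of 37 named list genes, 31 kept their side throughout. The replicate numbers did not pair the samples (correlations of 0.042, -0.022 and 0.018 between same-numbered samples), and a fit with a replicate block called 8705 genes, including the same number of the 10 (9). Depth limits HSPA1A, with 110 to 197 counts per sample, more than the other 9 genes.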

Other observations

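Over the 6 samples, the genes nearest to CLU in their centred log2 CPM profile, among 9608 genes with a mean of at least 10 CPM, were RRAD (a Ras-related GTPase), CDKN1A (the cell cycle inhibitor p21) and VASN (a binder of TGF-beta). CDKN1A was at 100.2, 112 and 97.6 CPM after vehicle and at 513, 531 and 532 CPM after SCH. RRAD was at 19.9, 20.9 and 19.5 CPM after vehicle and at 112, 99.2 and 108 CPM after SCH, and its log2 fold change of 2.41 was next to that of CLU. Those nearest to HSPA8 were ANKRD1 (a muscle-type ankyrin repeat protein), MCM6 (a subunit of the replicative helicase) and RBBP4 (a histone-binding protein). MCM6 was at 136.5, 136 and 145 CPM after vehicle and at 78.3, 82.6 and 84.2 CPM after SCH, and ANKRD1 had a log2 fold change of -0.75. Likeness was the Euclidean distance, which is smallest for genes with a change of the same size, and the samples of a group share their treatment and culture, so the lists describe these 6 libraries.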
